A study of Mus musculus with 2 samples.

Results

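Chromosomal DNA is copied once in each cell cycle. The origin recognition complex marks the places where copying can begin, CDC6 and CDT1 load the MCM2-7 helicase there, and CDC45 together with the GINS complex turns the loaded helicase into an active one. DNA polymerases, the sliding clamp PCNA, its loader RFC and the single strand binding protein RPA then work at the fork, while ribonucleotide reductase and thymidine kinase supply deoxynucleotides. In the embryonic brain this machinery is most active in the dividing neuroepithelial cells that line the ventricles, and transcription of many of its genes rises towards S phase under the control of E2F factors.

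Transcripts of 47 such genes were examined in E10.5 mouse brain, wild type against Plzf lu/lu, out of 37074 gene names on the array. The genes were taken by name, from the origin recognition complex to the chromatin assembly factor. No measured value set the choice, though earlier results of these data were known when the lists were made. Each gene was read from its brightest probe, and a gene was tested when its processed signal was above 200 and its signal-to-noise ratio at least 5 in all 4 channels. In all, 45 of the 47 genes passed, with 10600 genes tested over the whole array, and Orc5 and Pola2 did not.

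Each of 2 arrays carried Cy3-labeled RNA from wild type brain (C57BL/6 in the labels) beside Cy5-labeled RNA from luxoid brain, and the methods name the tissue as forebrain and midbrain. Luxoid is a spontaneous mutation of Plzf (Zbtb16), a zinc finger transcription factor gene, that leaves a severely truncated protein, and the mutant embryos carry it on both alleles in every cell. The labels call the arrays biological replicates, and the number of embryos behind each is not given in the sources used here. Dye and genotype cannot be told apart because no array was labeled the other way round. Signal of the mutated gene itself was 433 and 546 in wild type and 172 and 211 in Plzf lu/lu, so the Zbtb16 probe was lower in the mutant on both arrays. The mutant value on array 1 lay below the signal minimum, and the probe reads the transcript level, not the mutation.

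Among the cell type markers, 10 of 12 neural progenitor genes passed, and the 5 posterior Hox genes were all below the signal minimum. The summed signal of 10 erythroid genes ran from 195141 to 469858 in wild type and from 238210 to 251607 in Plzf lu/lu, with a median log2 ratio of -1.05 on array 1 and 0.10 on array 2 among the 6 that passed. The 12 endothelial genes summed to between 6583 and 7731 in wild type and between 5200 and 5638 in Plzf lu/lu, and 7 of them did not pass, with Pecam1 and Cdh5 below the minimum in every channel and Kdr in the mutant channels. The 12 neuron genes summed to between 10181 and 11253 in wild type and between 12230 and 16483 in Plzf lu/lu. Among the 11 neuron genes that passed, the median log2 ratio was 0.14 on array 1 and 0.72 on array 2. The part of these differences in the results on replication genes was not tested. In such whole-tissue RNA, a change in the number of dividing cells and one in RNA per dividing cell cannot be told apart.

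The promoters of the replication genes were searched for 3 motifs. RefSeq promoter windows (build GRCm38.p6, 250 bases before and 50 bases from the annotated start on) were at hand for 39 of the 47 genes. The E2F motif was spelled TTTCCCGC, TTTCGCGC, TTTGCCGC or TTTGGCGC and searched on both strands. It stood in the window of 15 of the 39 genes (38.5%), against 2.6% of the 27025 genes with a window. The share was 36.4% among 44 other replication genes and 4.0% among 25 mitotic genes. The letters CCAAT were found for 24 of the 39 genes (61.5%, against 41.1% of all genes) and GGGCGG for 30 (76.9%, against 38.2%), also on both strands.

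The E2F letters are printed here, 1 site for each gene, for the genes that carry them and whose signals are given below, because the same motif stands in genes that were lower (Cdc6, Pole2), higher (Pola1, Pold1) and near equal (Mcm3, Mcm5, Mcm6, Mcm7, Orc1) in Plzf lu/lu. Each sequence is written 5′ to 3′ along the gene's own strand, in lower case, with the motif in capitals. Where GCGGGAAA, GCGCCAAA or GCGCGAAA is capitalized, the motif lies on the opposite strand. In Mcm5 and Mcm6 a pair of matches on opposite strands overlaps, and the capitals cover both.
Cdc6, chr11:98908002-98908031, plus strand: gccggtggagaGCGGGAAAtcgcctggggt
Pole2, chr12:69228162-69228191, minus strand: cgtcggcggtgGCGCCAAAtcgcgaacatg
Pola1, chrX:93632275-93632304, minus strand: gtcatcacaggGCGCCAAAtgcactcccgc
Pold1, chr7:44548766-44548795, minus strand: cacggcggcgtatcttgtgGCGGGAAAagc
Orc1, chr4:108579416-108579445, plus strand: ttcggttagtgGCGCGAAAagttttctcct
Mcm3, chr1:20820275-20820304, minus strand: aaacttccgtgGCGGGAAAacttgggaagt
Mcm5, chr8:75109347-75109376, plus strand: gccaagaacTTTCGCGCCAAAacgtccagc
Mcm6, chr1:128359795-128359824, minus strand: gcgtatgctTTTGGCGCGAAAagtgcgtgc
Mcm7, chr5:138172030-138172059, minus strand: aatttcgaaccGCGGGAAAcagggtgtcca
The printed motif began 138 bases before the annotated start in Cdc6 and in Pola1, 27 bases before it in Orc1, 153 in Mcm5, 110 in Mcm6 and 165 in Mcm7. In Pole2, Pold1 and Mcm3 it lay downstream of the start. Mcm3, Mcm6 and Mcm7 hold a further site, not printed, which begins 47 bases before the start in Mcm6 and lies downstream in Mcm3 and Mcm7. Gins2 and Mcm4 had no window, and that of Cdc45 held no E2F letters. The 15 genes with the E2F letters all passed and had a median log2 ratio of 0.04 (-0.25 to 0.34). The 22 others that passed and had a window had a median of -0.01 (-0.35 to 0.17). The ranges overlapped, and no test was made of the difference.

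Across all roles the transcripts differed little between genotypes. Over the 45 genes, the log2 ratio (mutant over wild type) had a median of 0.08 on array 1 and -0.03 on array 2, beside 0.02 and -0.005 over all 10600 genes. None of the 45 genes was above 1.3-fold on both arrays or below it on both, whereas 2.58% of all genes were higher and 0.736% lower by that rule. In the limma fit, adjusted by Benjamini-Hochberg across the 10600 genes, 0 of the 45 had an adjusted p under 0.05, and 0.0283% of all genes did. At an unadjusted p under 0.05, Pola1 and Mcm4 were higher (15.7% of all genes were), and Gins2, Cdc45, Cdc6 and Pole2 were lower (12% of all genes were). With the looser limit of an adjusted p under 0.1, no replication gene was higher (7.6% of all genes) and Gins2 and Cdc45 were lower (4.55% of all genes).

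The size of a change that these arrays allow was read from the 95% interval of limma for the mean of the 2 log2 ratios. That interval lay within 1.3-fold in both directions for 38 of the 45 genes (62.3% of all genes) and within 1.5-fold for 44 of them (91% of all genes). The median distance from the mean to either bound was 0.20 on the log2 scale, the same to this precision as over all genes. Since 2 arrays leave each gene 1 residual degree of freedom, the interval leans on a variance pooled over genes, and an exact sign-flip test on 2 arrays cannot fall below p = 0.5.

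**Figure D1:**
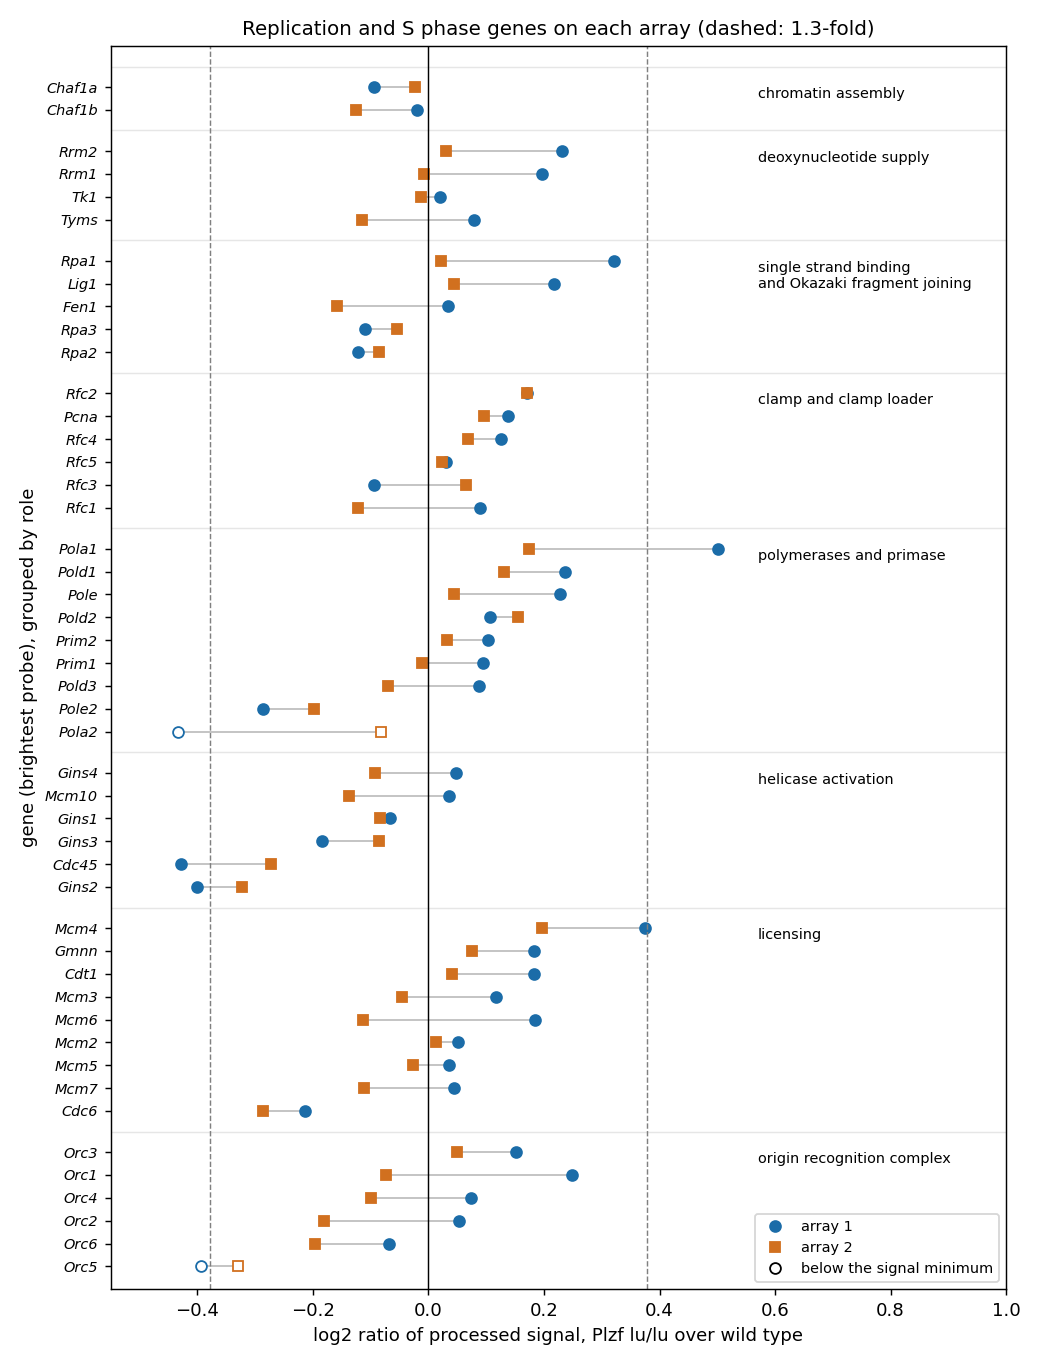
Log2 ratio, Plzf lu/lu over wild type (x axis) of each of the 47 genes (y axis, grouped by role), with array 1 as circles, array 2 as squares and open symbols for Orc5 and Pola2, which were below the signal minimum. No gene that passed has both symbols outside the dashed 1.3-fold lines. Of the genes that passed, Gins2 and Cdc45 have the lowest means, and Pola1 has the highest value, 0.50 on array 1.

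The helicase activation genes had the lowest median of the role groups on each array. All 6 passed, and their median was -0.125 on array 1 and -0.115 on array 2. In Plzf lu/lu, 4 were lower on both arrays and none was higher on both. Of all 10600 genes, 3749 were lower on both arrays and 3949 higher on both.
Gins2, a subunit of the GINS complex, gave a signal of 3122 and 3152 in wild type and 2364 and 2521 in Plzf lu/lu on arrays 1 and 2. Both mutant values lay below both wild type values, as for 26.3% of all genes. The mean of its log2 ratios was -0.36 ± 0.06 (SD, n = 2 arrays), with a 95% interval from -0.55 to -0.17 and an adjusted p of 0.071 by limma. The probe lies at chr8:123105259-123105318 (build mm9).
A second Gins2 probe, at chr8:123112627-123112686, gave 1382 and 1231 in wild type and 857 and 972 in Plzf lu/lu. It was also lower in the mutant on both arrays, with log2 ratios of -0.69 and -0.34, and it does not overlap the first.

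Cdc45, which joins MCM2-7 and GINS in the active helicase, gave 383 and 356 in wild type and 284 and 295 in Plzf lu/lu. Again the genotypes did not overlap. The log2 ratios averaged -0.35 ± 0.11 (SD, n = 2 arrays), the interval ran from -0.55 to -0.15, and the adjusted p was 0.081 by limma. The Cdc45 probe spans 1482 bases of chr16:18793399-18794880 (mm9), so its 60 bases cross an intron. Its other probe was below the signal minimum.
Gins3 and Gins1, the remaining GINS subunits that were lower on both arrays, had mean log2 ratios of -0.13 and -0.08, and both intervals included 0. A second Gins1 probe had log2 ratios of -0.28 and -0.20. Gins4 and Mcm10, which helps to start unwinding, had opposite signs on the arrays and means of -0.02 and -0.05.

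When the trend of the log2 ratio with probe GC content was removed on each array, Gins2 (-0.45) and Cdc45 (-0.42) had adjusted p-values of 0.032 and 0.039 by limma. In that setting 6.67% of all genes had an adjusted p under 0.05, 707 genes in place of 3. The adjusted p-values by limma were higher in other settings, at 0.198 for both genes with the deposited log2 table, 0.256 (Gins2) and 0.263 (Cdc45) with the well above background filter, and 0.56 and 0.57 with no filter. The log2 ratio fell with GC content over all genes (Spearman's rho -0.38 on array 1 and -0.20 on array 2, across genes, which are not independent). The probes of the replication genes had the same median GC content as all genes, 41.7%, but those of Gins2 (35%) and Cdc45 (36.7%) lay below it. Across the replication genes that passed, the mean log2 ratio had a Spearman's rho of 0.04 with GC content, beside -0.33 across all genes.

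**Figure D2:**
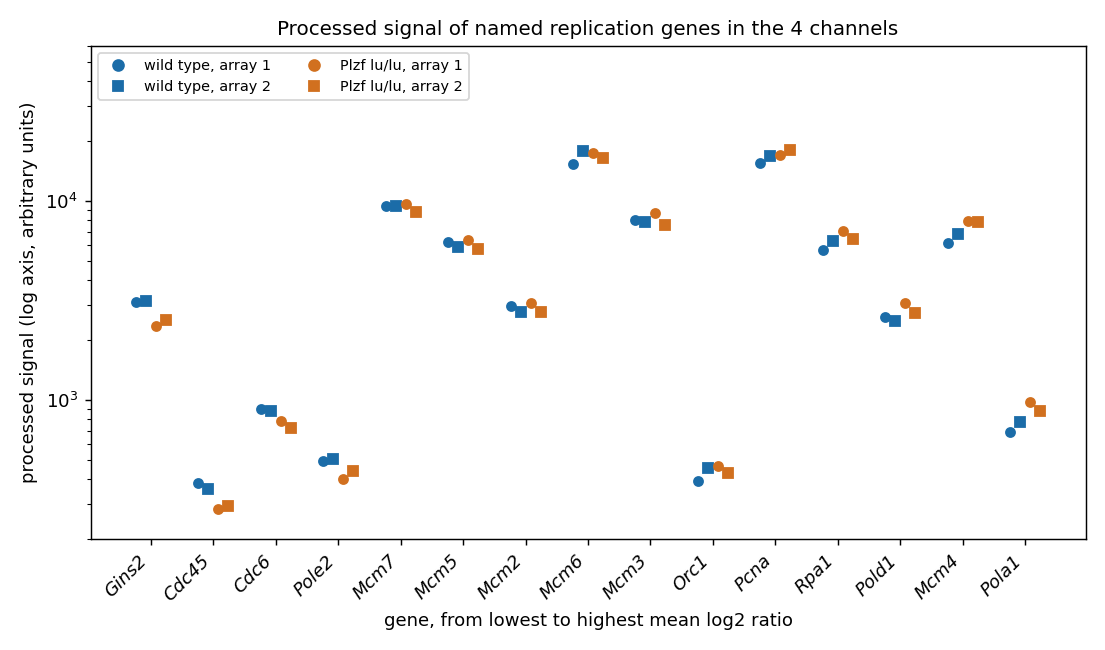
Processed signal (y axis, log scale, arbitrary units) of 15 named replication genes in each of the 4 channels (blue wild type, orange Plzf lu/lu, circles array 1, squares array 2). For Gins2, Cdc45, Cdc6 and Pole2 both mutant points lie below both wild type points (26.3% of all genes). They lie above for Pold1, Mcm4, Rpa1, Pcna and Pola1 (30.5% of all genes). All of these but Pcna were named as the 4 highest or 4 lowest mean ratios. For Mcm2, Mcm3, Mcm5, Mcm6, Mcm7 and Orc1 the points of the genotypes overlap.

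The licensing genes, which prepare origins before S phase, stayed near the level of all genes with an exception on each side. All 9 passed, with medians of 0.12 and -0.03 on the arrays.
Cdc6, an ATPase that loads the helicase, gave 906 and 882 in wild type and 781 and 723 in Plzf lu/lu. The mutant was lower on both arrays, and the log2 ratios averaged -0.25 ± 0.05 (SD, n = 2 arrays; interval -0.44 to -0.06; adjusted p = 0.11 by limma). Its second probe was also lower, with log2 ratios of -0.09 and -0.24.
Mcm4, a subunit of the helicase, gave 6108 and 6818 in wild type and 7918 and 7817 in Plzf lu/lu. The genotypes did not overlap in the opposite direction, with a mean of 0.29 ± 0.13 (SD, n = 2 arrays; interval 0.08 to 0.49; adjusted p = 0.11 by limma). On array 1 its log2 ratio of 0.374 was just short of the 1.3-fold limit (0.379).

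The other subunits of MCM2-7 had mean ratios near 0 with their brightest probes. Mcm2 gave 2966 and 2752 in wild type and 3074 and 2777 in Plzf lu/lu. Mcm3 gave 7989 and 7841 in wild type and 8659 and 7600 in the mutant. Mcm5 gave 6179 and 5862 in wild type and 6331 and 5755 in the mutant.
In all of these the genotypes overlapped, and the mean log2 ratios were 0.03, 0.04 and 0.004. Mcm6 gave 15366 and 17788 in wild type and 17470 and 16436 in Plzf lu/lu, so that its log2 ratio was 0.19 on array 1 and -0.11 on array 2, among the 3 largest differences between arrays. Mcm7 gave 9398 and 9453 in wild type and 9694 and 8746 in the mutant, with a mean of -0.03. A second Mcm6 probe that passed had log2 ratios of -0.18 and -0.09. An Mcm3 probe that shares bases with the brightest had 0.20 and 0.13, and the other Mcm3 probes had opposite signs on the arrays.
The intervals of these 5 genes lay between -0.24 and 0.28 on the log2 scale. Cdt1, the partner of CDC6 in loading, and Gmnn, which inhibits CDT1, had mean log2 ratios of 0.11 and 0.13 and were higher on both arrays, each with an interval that included 0.

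Of the origin recognition complex, 5 of 6 genes passed, and 3 of them had opposite signs on the arrays. Orc1, the large ATPase subunit, gave 392 and 454 in wild type and 466 and 431 in Plzf lu/lu. Its log2 ratio was 0.25 on array 1 and -0.07 on array 2, 1 of the 3 largest differences between arrays among the 45 genes, and the genotypes overlapped.
Orc3 was higher on both arrays (0.15 and 0.05) and Orc6 lower on both (-0.07 and -0.20), while Orc2 and Orc4 had means of -0.06 and -0.01. Orc5 gave 158 and 140 in wild type and 120 and 111 in Plzf lu/lu, below the signal minimum in every channel. Its ratio was under 1 on both arrays and was not tested.

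The polymerase and primase genes held the highest mean ratio, that of Pola1. Of 9 genes 8 passed, with medians of 0.11 and 0.04. In Plzf lu/lu, 5 were higher and 1 was lower on both arrays, beside 3949 and 3749 of all 10600 genes.
Pola1, the catalytic subunit of polymerase alpha, which starts each new strand, gave 691 and 778 in wild type and 978 and 878 in Plzf lu/lu. The mutant was above wild type throughout, by 1.42-fold on array 1 and 1.13-fold on array 2. The log2 ratios averaged 0.34 ± 0.23 (SD, n = 2 arrays; interval 0.09 to 0.59; adjusted p = 0.11 by limma), and the difference between arrays was the largest of the 45 genes. A second Pola1 probe had log2 ratios of 0.25 and 0.12.
Pold1, the catalytic subunit of polymerase delta, gave 2614 and 2491 in wild type and 3080 and 2726 in the mutant. The genotypes did not overlap, and the mean was 0.18 ± 0.08 (SD, n = 2 arrays; interval -0.01 to 0.38; adjusted p = 0.195 by limma).

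Pole2, the second subunit of polymerase epsilon, ran the other way. It gave 491 and 507 in wild type and 402 and 442 in Plzf lu/lu, with no overlap and a mean of -0.24 ± 0.06 (SD, n = 2 arrays; interval -0.43 to -0.05; adjusted p = 0.12 by limma). Pole, the catalytic subunit of the same enzyme, had log2 ratios of 0.23 and 0.04.
The primase genes Prim1 and Prim2, whose products lay down the RNA primer, had means of 0.04 and 0.07. Pold2 and Pold3, accessory subunits of polymerase delta, had means of 0.13 and 0.009. Pola2, the second subunit of polymerase alpha, gave 100 and 80 in wild type and 74 and 76 in Plzf lu/lu and was not tested.

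The clamp and its loader were close to equal in the genotypes, with group medians of 0.11 and 0.07. Pcna, the sliding clamp, gave 15494 and 16751 in wild type and 17047 and 17913 in Plzf lu/lu. Both mutant values were above both wild type values, with a mean of 0.12 ± 0.03 on the log2 scale (SD, n = 2 arrays; interval -0.07 to 0.30; adjusted p = 0.35 by limma). The Pcna probe spans chr2:132075420-132075557 (mm9) and crosses an intron. Of the clamp loader genes, Rfc2 had nearly the same log2 ratio on the arrays (0.17 and 0.17), Rfc4 and Rfc5 were positive on both, and Rfc1 and Rfc3 had opposite signs.

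Of the single strand binding and Okazaki fragment genes, Rpa1, the large RPA subunit, gave 5649 and 6305 in wild type and 7056 and 6404 in Plzf lu/lu. Its log2 ratio was 0.32 on array 1 and 0.02 on array 2, so that the excess stood on array 1. A second Rpa1 probe gave 0.009 and -0.16.
Rpa2 and Rpa3, which encode the smaller subunits, were lower on both arrays, with means of -0.10 and -0.08. Lig1, the ligase that joins Okazaki fragments, had a mean of 0.13, and Fen1, the nuclease that trims their ends, of -0.06.
In deoxynucleotide supply, Rrm1 and Rrm2, the subunits of ribonucleotide reductase, had means of 0.09 and 0.13, Tk1, thymidine kinase, of 0.004 and Tyms, thymidylate synthase, of -0.02. Chaf1a and Chaf1b, subunits of the factor that places histones on new DNA, had means of -0.06 and -0.07. No interval in these groups excluded 0.

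For the replication genes, the arrays differed from each other by about as much as the genotypes did. Of the 45 genes, 33 had a positive log2 ratio on array 1 and 18 on array 2, and the ratio was higher on array 1 for 36 of them (5683 of all 10600 genes). From array 1 to array 2 the median log2 signal of the 45 genes went up by 0.04 in wild type and changed by -0.06 in Plzf lu/lu. The median absolute difference of 1 genotype between arrays was 0.11 in wild type and 0.10 in Plzf lu/lu, whereas that between genotypes within an array was 0.12 on array 1 and 0.09 on array 2. Over all genes tested the same medians were 0.11 and 0.09 between arrays and 0.16 and 0.12 between genotypes. Signals were not scaled between arrays, so differences between them also hold any difference in overall brightness. Both mutant signals lay above both wild type signals for 13 genes (30.5% of all genes) and below for 9 (26.3% of all genes).
The sign was the same on both arrays for 28 of the 45 genes (62.2%), 17 positive and 11 negative, and for 72.6% of all genes. Of all 10600 genes, 3949 were positive and 3749 negative on both arrays. The log2 ratios of the 45 genes on the arrays had a Pearson's r of 0.74 (Spearman's rho 0.67), and those of all genes an r of 0.55 (rho 0.60). These are correlations across genes that share the same 2 arrays and dyes.

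**Figure D3:**
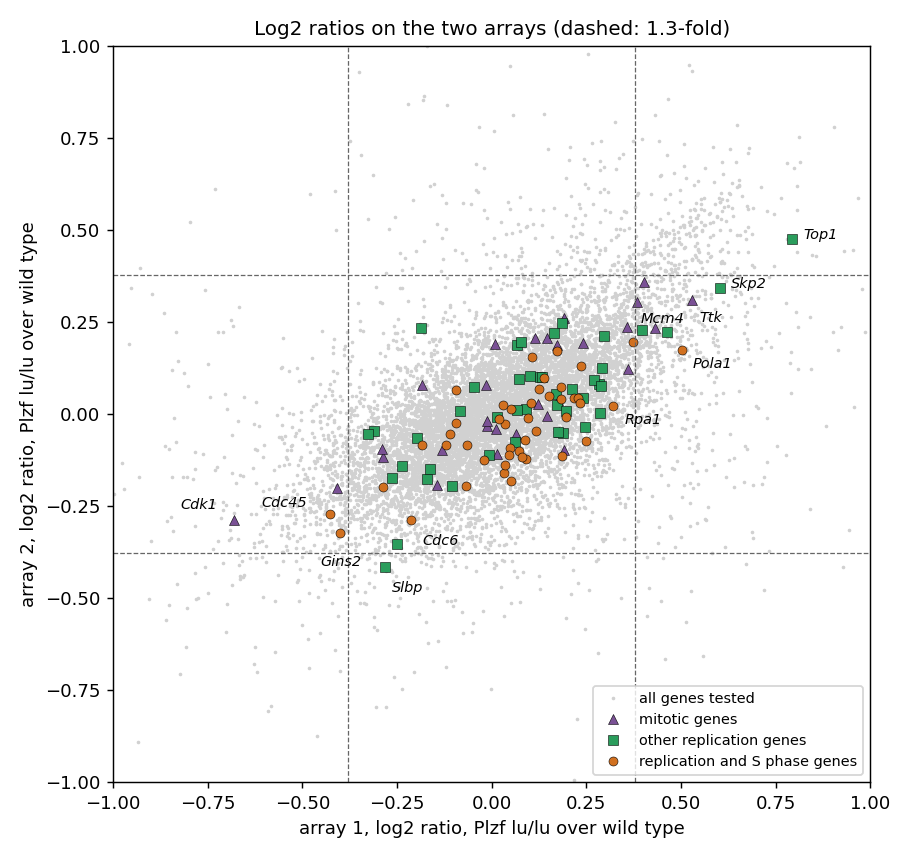
Log2 ratio, Plzf lu/lu over wild type, on array 1 (x axis) against array 2 (y axis) for all 10600 genes (grey; 53 lie outside the plotted range), the 45 replication and S phase genes (orange), 44 other replication genes (green) and 30 mitotic genes (purple). Top1 is the green point beyond the dashed 1.3-fold lines on both arrays, and no orange or purple point is.

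Probes of the same gene did not always give the same sign. A second probe that passed was at hand for 17 of the 45 genes, 22 probes in all, and 1 of them, for Mcm3, shared 20 bases or more with the brightest. Of the 22 probes, 11 had the sign of the brightest probe and 16 were within 0.2 of it on the log2 scale.
The larger departures were to lower values. Gmnn had 0.13 with its brightest probe and -0.22 with the other, Pold3 0.009 and -0.33, and Rpa1 0.17 and -0.08. Rfc4 had 0.10 with its brightest probe and -0.29 and -0.04 with the others, and Tk1 0.004 with its brightest and -0.24 and -0.21 with the others. None of the 22 probes was beyond 1.3-fold on both arrays. Gins2, Cdc6 and Pola1 had the sign of the brightest probe with each of their probes that passed.

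**Figure D4:**
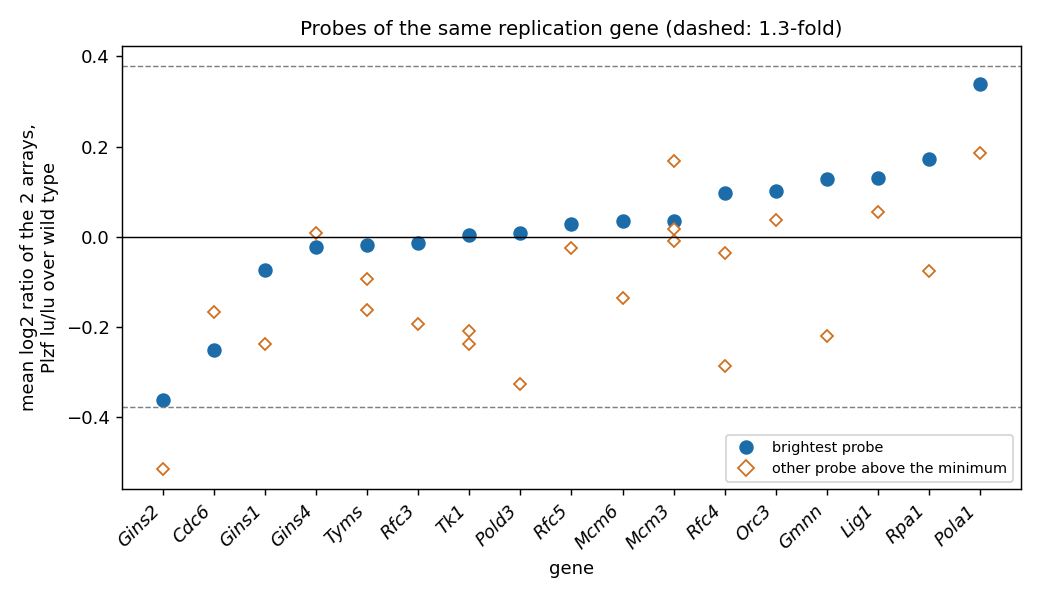
Mean log2 ratio of the 2 arrays (y axis) for the brightest probe (filled circles) and every other probe above the signal minimum (open diamonds) of the 17 genes with such a probe (x axis). The Gins2 probes are both negative and the Pola1 probes both positive. The Gmnn, Pold3, Rfc4, Tk1, Rpa1, Mcm6, Mcm3, Rfc5 and Gins4 probes lie on both sides of 0.

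A wider list of 53 other replication genes, chosen by role, was read in the same way. Of these 44 passed, with medians of 0.11 on array 1 and 0.03 on array 2. Their probes had a median GC content of 38.3%, beside 41.7% over all genes. By limma at an unadjusted p under 0.05, 8 were higher (15.7% of all genes) and 3 lower (12% of all genes), and none had an adjusted p under 0.05.
Top1, the topoisomerase that relaxes DNA ahead of the fork, gave 2810 and 3113 in wild type and 4866 and 4326 in Plzf lu/lu. It was the only gene of the list beyond 1.3-fold on both arrays, with log2 ratios of 0.79 and 0.47 and an adjusted p of 0.052 by limma. With the mean over its probes it was no longer beyond 1.3-fold on both. Slbp, which binds histone mRNA, was the lowest of those that passed, with 770 and 771 in wild type, 633 and 578 in Plzf lu/lu and log2 ratios of -0.28 and -0.41 (adjusted p = 0.081 by limma).

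Of 30 mitotic genes all passed, and none was beyond 1.3-fold on both arrays. Their medians were 0.12 and 0.03, with 8 higher (15.7% of all genes) and 2 lower (12% of all genes) at an unadjusted p under 0.05 by limma. Cdk1, the kinase that drives entry into mitosis, was the lowest, with 2527 and 1999 in wild type, 1576 and 1638 in Plzf lu/lu and log2 ratios of -0.68 and -0.29 (adjusted p = 0.081 by limma). Ttk, a spindle checkpoint kinase, was the highest, with 557 and 595 in wild type, 804 and 738 in Plzf lu/lu and log2 ratios of 0.53 and 0.31 (adjusted p = 0.07 by limma). For both genes the genotypes did not overlap, as for 26.3% of all genes in the lower and 30.5% in the higher direction.

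**Figure D5:**
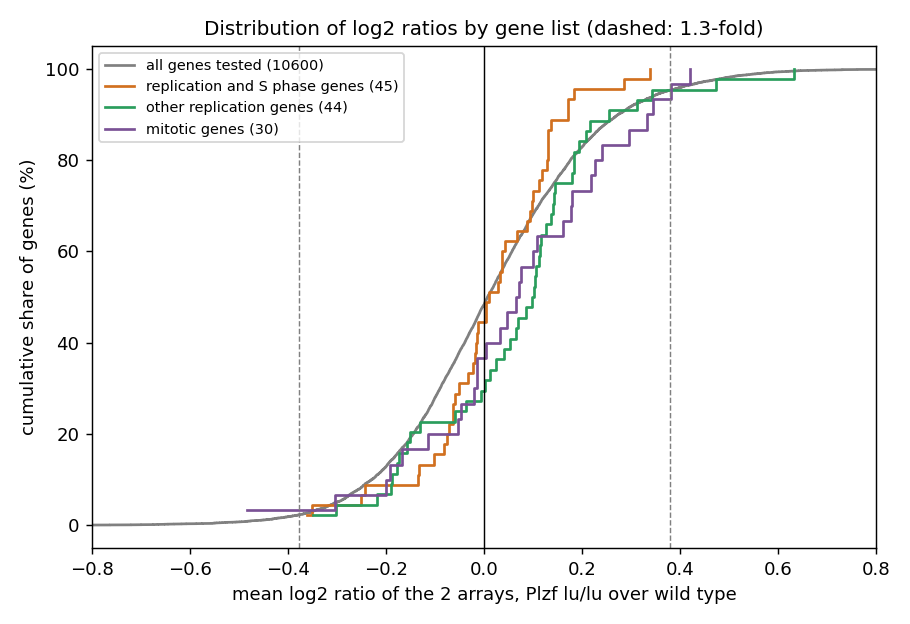
Cumulative share of genes (y axis, %) by mean log2 ratio of the 2 arrays (x axis) for all genes tested, the 45 replication and S phase genes, 44 other replication genes and 30 mitotic genes. The replication and S phase genes run from -0.36 to 0.34, inside the dashed 1.3-fold lines, with a median of 0.009 beside 0.007 for all genes.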

How the data were processed

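RNA from E10.5 forebrain and midbrain was hybridized by the authors to 2 arrays with 2 dyes each, wild type in Cy3 and Plzf lu/lu in Cy5. The deposited intensity values come from the authors' scan, processed in Feature Extraction 10.7.3.1. This software removed background, set dim spots to a surrogate and balanced Cy5 against Cy3 on every array by a LOWESS fit over rank-consistent probes. The deposited files also hold the pixel SD of the background signal, used for the signal-to-noise ratio, and 0 or 1 flags. A deposited log2 table of the authors holds the same ratios. Groups, dyes and replicate numbers came from the labels. The files give probe positions in mm9, and promoter sequences are from RefSeq (GRCm38.p6).

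Control spots and spots with an outlier flag were not used. Repeated spots of a probe were averaged as log2 values, and the brightest probe stood for its gene. Log2 ratios were fitted with limma 3.58.1 in R 4.3.3 (intercept, eBayes, Benjamini-Hochberg over 10600 genes). Files were read with pandas 2.3.3 under Python 3.11.15 and the data.table package of R (version 1.17.8), and plots were drawn with matplotlib 3.10.9. On simulated data of 10600 genes on 2 arrays, with 200 genes changed by 1 on the log2 scale, limma recovered 96.5% to 100% of these in 20 simulations. Changes of the size seen in the replication genes were not simulated. The number of arrays limits the precision.

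The gene lists were chosen with earlier results of these data known. Signals are given for Pcna, Mcm2 to Mcm7, the 4 highest and 4 lowest genes, the 3 with the largest difference between arrays, any gene beyond 1.3-fold on both arrays, and, of the other lists, genes beyond 1.3-fold on both arrays or the extremes. Signals of Orc5 and Pola2, which did not pass, were added. The alternatives were normexp (offset 50) with loess or with median centring over all spots, the deposited log2 table, 3 other filters, the mean over probes, removal of the GC trend (lowess, span 0.67), each array alone, 1.5-fold, the mean of the arrays, eBayes with trend and the 4 channels as separate samples.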

Additional observations from a re-analysis of the deposited data

How the results depend on the processing

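Under 7 of the 8 other ways of processing, filtering or summarizing the probes, none of the replication and S phase genes was beyond 1.3-fold on both arrays. Normexp with median centring over all spots moved the median of all genes tested to 0.55 on the log2 scale. Against that shift, the replication genes had a median of 0.61, 0.05 above all genes. In that setting 34 of them and 33 other replication genes were higher beyond 1.3-fold on both arrays, as were 6698 of all 10600 genes. Of the replication genes, 41 had an adjusted p and 41 an unadjusted p under 0.05 by limma. Over all genes, 9644 had an adjusted p and 9691 an unadjusted p under 0.05 by limma. Without subtraction of the shift, Gins2, Cdc45, Cdc6 and Pole2 stood at 0.20, 0.11, 0.26 and 0.22 there and Mcm7 at 0.60, all of which are negative in the report. With the GC trend removed, 2 replication genes had an adjusted p and 9 an unadjusted p under 0.05 by limma. Over all 10600 genes these counts were 707 and 2985. With the limit at an adjusted p under 0.1, 2 replication genes passed, both lower (4.55% of all genes). With no filter, 0 replication genes had an unadjusted p under 0.05 by limma, beside 3380 of all 37071 genes. With eBayes with trend, 8 replication genes did, with no count over all genes at hand.

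With 1 array alone, between 0 and 1 replication genes were higher and between 0 and 2 lower beyond 1.3-fold. These were Pola1 and then Gins2 and Cdc45, on array 1. The median of the replication genes was -0.03 without array 1 and 0.08 without array 2. Among the other replication genes, between 1 and 4 were higher and between 0 and 1 lower with 1 array alone. Of all 10600 genes, 875 were higher and 592 lower on array 1, and 477 higher and 208 lower on array 2. With the mean of the arrays 2 of the other replication genes were higher, with the mean over probes 0 and at 1.5-fold 0. With the well above background filter and with no filter, 1 of them was lower, Ccne2. By that rule 481 of 23283 genes were lower with the former setting and 2173 of 37071 with the latter. With the 4 channels as separate samples, without the pairing by array (no replicate block), 0 genes had an adjusted p and 6 an unadjusted p under 0.05. Signs of genes near 0 turned between settings, for example Mcm6 (-0.02 with normexp and loess, -0.05 with the mean over probes) and Orc1 (-0.004 with the GC trend removed). The cause of these changes was not tested.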
